A study of Homo sapiens with 9 samples.

Results

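The ubiquitin genes described here are the protein-coding genes of the deposited gene list whose symbol places them in 1 of 11 families of ubiquitin-conjugating enzymes, ubiquitin ligases, ligase subunits and deubiquitinases. Members were chosen by symbol alone, with UBE2, UBE3, USP, OTUD, FBXO, FBXL, FBXW, TRIM, RNF, CUL and KLHL as the starting letters. They numbered 117 of the 9588 listed genes and of the 6037 that GENCODE v44 classes as protein-coding. The list belongs to a ChIP-seq study of ubiquitylated histone H2B (H2BK120Ub) in RPE1 cells, an hTERT-immortalized line of human retinal pigment epithelium. All libraries, controls included, came from 1 RPE1 iCas9 background, in which Cas9 can be induced and which carries gene knockouts, that of a puromycin resistance gene among them. Cells were mock-treated (2 libraries) or irradiated with 9 J/m2 of UV-C and collected after 3 h (2 libraries) or 24 h (4 libraries), and a further library held the input chromatin of a mock sample. The ChIP-seq signal of these libraries was not analysed here. What was analysed is the value the list gives for each gene, the density of nascent RNA reads (BrU-seq) in the first 3 kb in unirradiated WT cells, together with the position and length of the gene. BrU-seq labels new RNA with bromouridine for a short time and sequences it, and this density was made from an earlier data set of the same authors. It is 1 authors' value per gene without an error, so levels below are described and no difference between genes was tested.

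Ubiquitin is attached to proteins in a relay. An E1 enzyme activates it, an E2 conjugating enzyme (UBE2 family) carries it, and an E3 ligase chooses the protein that receives it. RING ligases (many RNF and TRIM proteins) bring a loaded E2 to the substrate, HECT ligases (UBE3) take the ubiquitin over first, and cullin-RING ligases are built from a cullin scaffold (CUL), a RING protein and an exchangeable substrate receptor, such as an F-box protein (FBXO, FBXL, FBXW) on CUL1 or a BTB-Kelch protein (KLHL) on CUL3. Deubiquitinases of the USP and OTUD families take ubiquitin off again. In transcribed chromatin the E2 enzymes UBE2A and UBE2B and the ligase RNF20-RNF40 place the H2B mark, and a CUL4 ligase acts in the repair of transcription-blocking DNA lesions.

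Genes were called transcribed at a density of at least 15, which 3000 genes of the whole list reached, weakly transcribed when above 0 and below 15, and silent when listed at 0. Among the 117 members, 71 were transcribed, 14 were weakly transcribed, 27 were listed at 0 and 5 had no value. Of the 112 members with a value, 63.4% were thus transcribed, while 45.7% of all listed protein-coding genes and 31.6% of all listed genes with a value reached the same density. At the other end, 24.1% of the members were listed at 0, against 30.0% of the protein-coding genes and 41.3% of all listed genes. The share of transcribed genes was 9 of 10 for FBXO, 9 of 11 for UBE2, 11 of 15 for USP, 15 of 22 for RNF, 6 of 11 for KLHL and 12 of 32 for TRIM. TRIM genes made up 15 of the 27 members listed at 0, and without this family 73.8% of the members with a value were transcribed. The members nearest to the threshold were TRIM45 at 15.47 and TRIM22 at 16.7 on the upper side and KLHL26 at 10.96 and TRIM73 at 10.79 on the lower side.

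**Figure D1:**
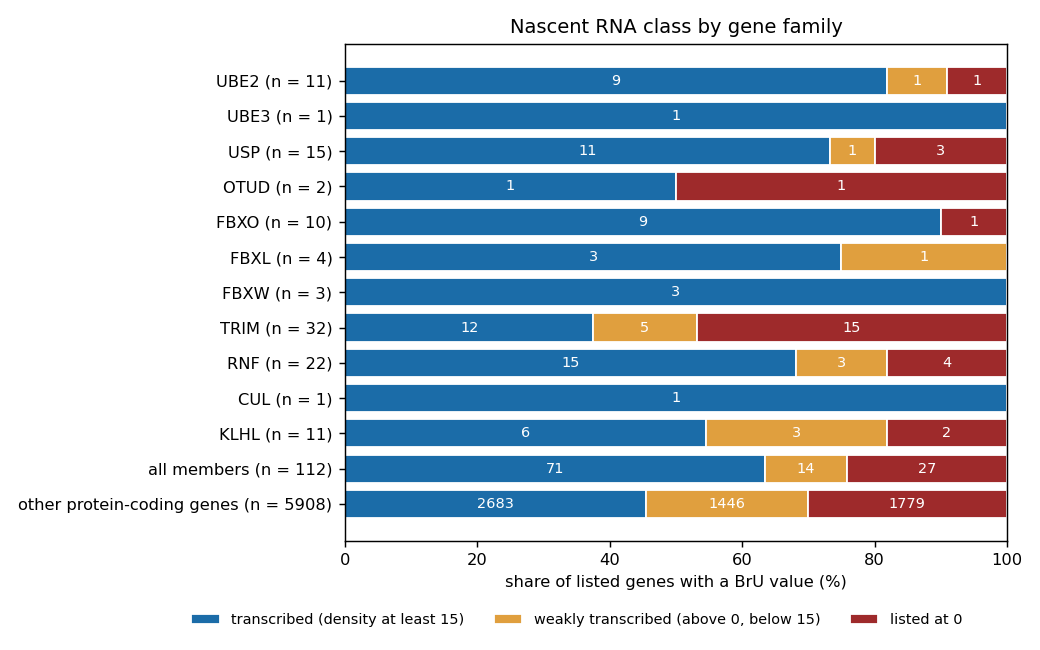
Share of listed genes with a BrU value (x axis, %) in each nascent RNA class, by gene family (y axis). The numbers inside the bars are genes, the blue part is transcribed, the orange part weakly transcribed and the red part listed at 0, and TRIM has the largest red part of the families with over 2 genes, with 15 of 32.

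The listed genes were selected to lie apart from others, and 117 of the 397 annotated protein-coding genes of these families (29.5%) were in it, against 30.1% of all annotated protein-coding genes. The listed share ran from 1 of 8 CUL genes and 16 of 78 USP genes to 36 of 77 TRIM genes. Even so, 5 members lay within 2 kb of another listed gene, FBXO33, USP47 and TRIM42 at 173, 1148 and 84 bp and the pair TRIM49D1 and TRIM49D2 at 1818 bp. The first 3 kb overlapped another annotated gene in 11 of the 71 transcribed members, whose median density was 77.2, against 76.5 in the other 60. The overlapped gene was protein-coding for FBXW2, FBXW10B, RNF7, RNF103, TRIM59, TRIM32, TRIM22 and USP13, and their densities may hold reads of both genes.

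As a check of the cell type, 6 of 13 marker genes of retinal pigment epithelium chosen for this purpose were listed. The transcription factor OTX2 had a density of 217.1 and MITF 13.3, whereas the visual cycle genes RPE65, RLBP1 and LRAT were at 0.26, 1.26 and 0.997 and TTR was listed at 0. Of the listed markers of blood cells and muscle, CD3E had a density of 0.173, and ACTN2 and CKM were listed at 0. The germ cell marker SYCP3 was at 1.17, TERT at 5.2 and the neuronal marker SNAP25 at 18.4.

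Transcribed members had a median density of 76.9 and a range of 15.47 to 493, and the other transcribed protein-coding genes had a median of 66.3. Among families with at least 6 transcribed members, the median was highest for UBE2 at 124.5, followed by TRIM at 76.7, USP at 69.9, FBXO at 65.5, RNF at 60.4 and KLHL at 47.1. The 10 highest members were CUL4B, FBXO32, KLHL9, TRIM59, FBXL5, UBE2S, USP47, TRIM26, FBXW2 and RNF7. They came from 9 of the families. In the list as a whole CUL4B ranked 60, FBXO32 89, KLHL9 92 and TRIM59 189, and these were the 4 members among the 250 genes with the most nascent RNA. Members were 1.22% of the list, 1.6% of the 250 highest genes and 2.6% of the 1000 highest. These shares include noncoding genes, whereas all members are protein-coding by rule. Members were 117 of the 6037 listed protein-coding genes and 71 of the 2754 transcribed ones.

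**Figure D2:**
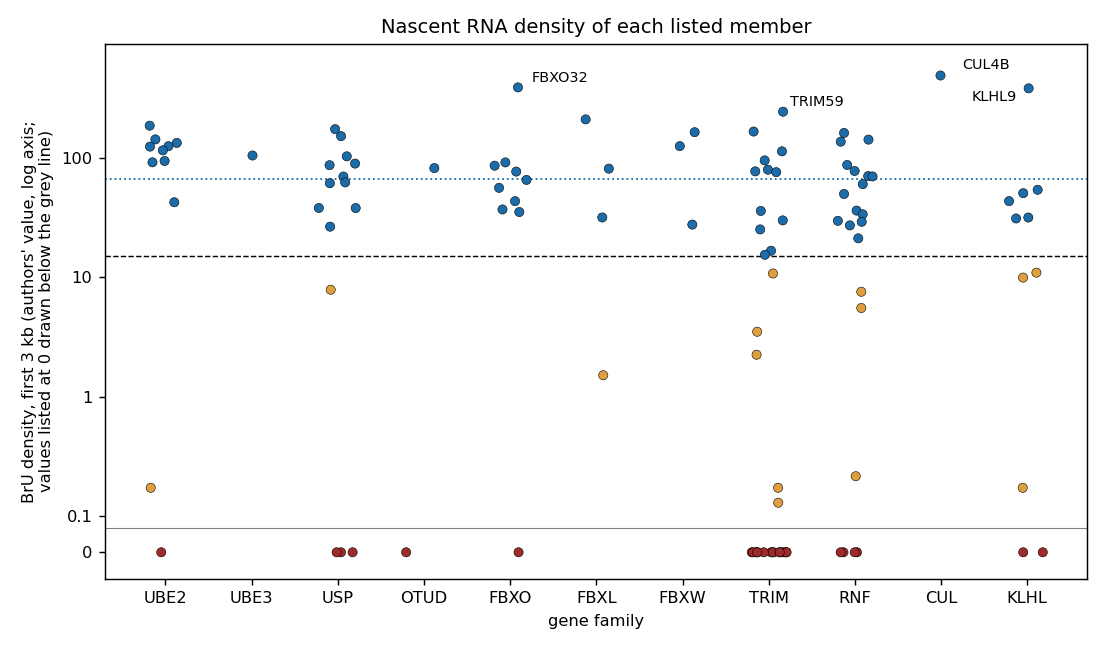
BrU density in the first 3 kb (y axis, authors' value on a log axis, with values of 0 drawn below the grey line) of each listed member, by gene family (x axis). Each point is 1 gene coloured by class as in the bar plot, the dashed line is the threshold of 15 and the dotted line the median of other transcribed protein-coding genes, 66.3, and most UBE2 points lie above both.

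Of the 11 E2 genes, 9 were transcribed. UBE2S, which extends ubiquitin chains with the anaphase-promoting complex, had the highest density at 186.3. UBE2D2 and UBE2L3, E2 enzymes that serve many ligases, were at 143 and 133.7, and UBE2V2, an E2-like protein without a catalytic cysteine, was at 125.5. UBE2J1, which acts on the endoplasmic reticulum membrane, had a density of 115.8 and UBE2T, the E2 of the Fanconi anaemia pathway, 91.95. The 2 H2B enzymes were both well above the threshold, UBE2B at 124.5 and UBE2A at 94.4, and UBE2B is 20540 bp long on chromosome 5 and UBE2A 9861 bp on chromosome X. UBE2D1, a close relative of UBE2D2, had a density of 42.6, the lowest of the 9 transcribed E2 genes. UBE2QL1 stood at 0.173, which is 4 of the smallest steps in which the list gives densities, and UBE2U was listed at 0. The sequence before the start of UBE2A (chrX:119574317-119574516, plus strand, GRCh38.p14) is shown beside that of UBE2QL1 (chr5:6448609-6448858, plus strand), because both are rich in CpG dinucleotides, in capitals here, while their densities differed so widely. Both come from the RefSeq promoter windows and are limited to the stretch outside annotated exons, 200 and 250 bases with 22 and 43 CpG.
UBE2A: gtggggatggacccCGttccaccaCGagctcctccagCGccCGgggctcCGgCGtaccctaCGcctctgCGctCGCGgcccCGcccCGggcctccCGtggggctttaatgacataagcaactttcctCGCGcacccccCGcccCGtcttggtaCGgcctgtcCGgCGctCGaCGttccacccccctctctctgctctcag
UBE2QL1: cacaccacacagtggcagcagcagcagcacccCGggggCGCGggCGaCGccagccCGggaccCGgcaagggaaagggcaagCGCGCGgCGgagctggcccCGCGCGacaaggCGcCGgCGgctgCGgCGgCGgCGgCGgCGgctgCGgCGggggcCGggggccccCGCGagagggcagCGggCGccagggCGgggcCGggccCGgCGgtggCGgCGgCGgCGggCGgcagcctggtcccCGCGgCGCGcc

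Among the ligases, the HECT enzyme UBE3C was at 105.1. The RING family held RNF7, the RING partner of CUL5, at 162, RNF114 at 142.4 and RNF4, which recognises SUMO-modified proteins, at 136.9. RNF111, another ligase for SUMO-modified proteins, was at 70, and RNF2, the catalytic RING protein of Polycomb complex 1 that ubiquitylates histone H2A, was at 49.96. The lowest transcribed RNF gene was RNF41 at 21.2. RNF150, RNF122 and RNF128 fell in the weakly transcribed class at 7.58, 5.55 and 0.217, the last only a few of the smallest steps above 0. RNF17, a germ cell gene, and RNF183, RNF222 and RNF223 were listed at 0.

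CUL4B, the only cullin analysed here, had the highest density of all members at 493. It serves as a CUL4 scaffold, as does its paralogue CUL4A, which was not analysed here. The listed gene lies on the minus strand of chromosome X from 120523858 to 120560962 and is 37105 bp long, with 20 exons in its canonical transcript. Its density belongs to the first 3 kb from the listed start only.

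All F-box genes analysed here were transcribed but FBXO47 and FBXL22. FBXO32 (atrogin-1), a receptor known from muscle wasting, had a density of 389.7, and FBXL5, which senses iron and controls the degradation of an iron-regulatory protein, was at 210.3. FBXW2 was at 164.3 and FBXW11, one of the β-TrCP receptors, at 125.7. FBXO7, which is mutated in a form of parkinsonism, was at 86.2 and the mitochondrial FBXL4 at 81.4. FBXL17, a quality-control receptor for BTB proteins, had 31.8 in the first 3 kb of a gene of 523064 bp, the longest member. FBXL22 was weakly transcribed at 1.52 and FBXO47 was listed at 0. Among the Kelch adaptors of CUL3, KLHL9, which acts on Aurora B in mitosis, had 382.7, and the next KLHL gene, KLHL20, had 54.2. KLHL9 has 1 exon, so its first 3 kb are 100% exonic, while the share was 5.4% in KLHL20. Across the 71 transcribed members density and exonic share did not move together (Spearman's rho -0.037), as a description over genes of 1 pooled data set. Their median exonic share was 7.53% (quartiles 5.22% and 15.2%), and whether the exonic share bears on the density of KLHL9 was not tested.

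The TRIM family was split. TRIM59 (243.9), TRIM26 (166.4) and TRIM56 (113.7) were its most transcribed genes, and TRIM24, a chromatin reader and ligase with a gene of 129738 bp, was at 30. At the end of the short arm of chromosome 11 the antiviral genes TRIM5 (76.1) and TRIM22 (16.7) lie next to each other in opposite orientation, 4715 bp apart, and TRIM21 (25.2), a cytosolic antibody receptor, and TRIM68 (36) lie in the same stretch. All 4 were transcribed. The annotated TRIM5 gene reaches into the first 3 kb of TRIM22 on the opposite strand, and since the count was made with default settings, which in HOMER take the reads of both strands, the reads of these genes cannot be told apart there. On chromosome 6 TRIM40, TRIM10 and TRIM15 were listed at 0, and TRIM26, whose listed end lies 11761 bp from TRIM15, had 166.4. On both sides of the centromere of chromosome 11, TRIM49B, TRIM64C, TRIM48 and TRIM51 were listed at 0. Further along the long arm TRIM77, TRIM49 and TRIM49C were also at 0, and the 4 genes between TRIM49 and TRIM49C, TRIM64B, TRIM49D1, TRIM49D2 and TRIM64, had no value. These 4 were among 17 genes on the main chromosomes outside Y without a value. The TRIM49 and TRIM64 genes are near-identical copies, as are TRIM73 and TRIM74, which had 10.79 and 3.51, so the alignment could place their reads on another copy and their values are uncertain.

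**Figure D3:**
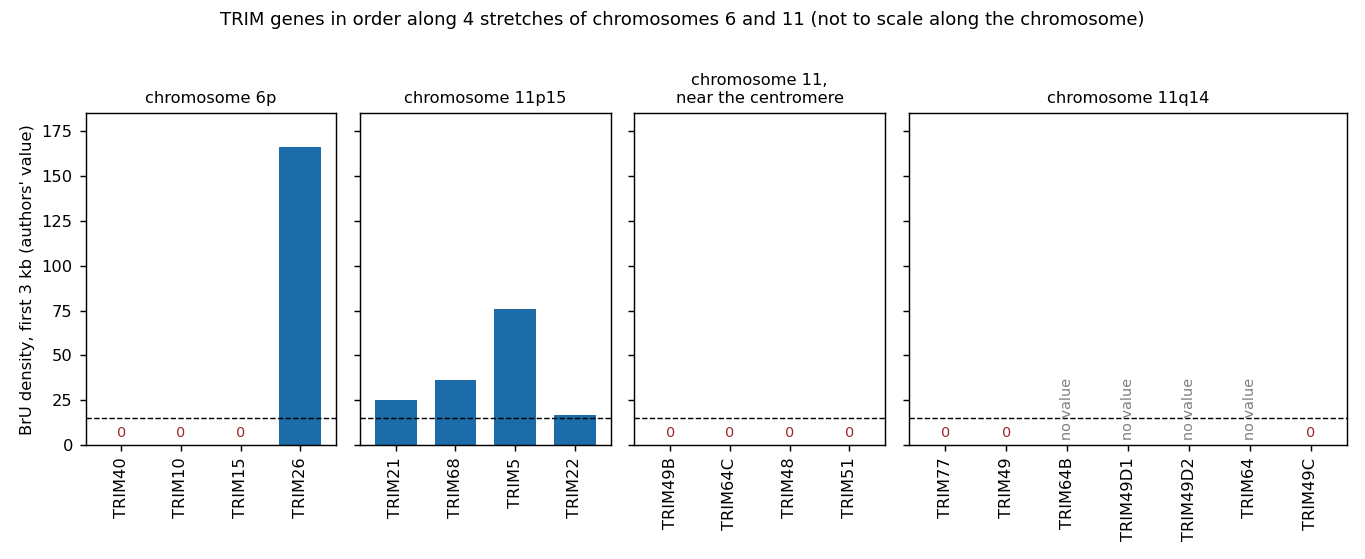
BrU density in the first 3 kb (y axis, authors' value) of TRIM genes in their order along 4 stretches of chromosomes 6 and 11 (x axis, not to scale). Bars are genes above 0, a red 0 marks a gene listed at 0 and the dashed line is the threshold of 15, and the bars stand for TRIM26 on chromosome 6 and for the 4 genes near the end of the short arm of chromosome 11.

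The promoters of TRIM26, TRIM40, TRIM10 and TRIM49 are shown because neighbouring or related genes differ in both density and CpG. They were picked for this contrast, and other TRIM genes went against it. In the 300-base promoter window TRIM5 and TRIM21, which were transcribed, had 6 CpG each, as had TRIM15, which was listed at 0. TRIM71, also listed at 0, had 27. CpG is in capitals, each sequence is the RefSeq window before the start outside annotated exons, on GRCh38.p14, and it runs 5′ to 3′ on the strand of the gene. TRIM26 (chr6:30213428-30213656, minus strand) has 19 CpG in 229 bases, TRIM40 (chr6:30135890-30136123, plus strand) 4 in 234, TRIM10 (chr6:30161212-30161461, minus strand) 0 in 250 and TRIM49 (chr11:89808576-89808825, minus strand) 1 in 250.
TRIM26: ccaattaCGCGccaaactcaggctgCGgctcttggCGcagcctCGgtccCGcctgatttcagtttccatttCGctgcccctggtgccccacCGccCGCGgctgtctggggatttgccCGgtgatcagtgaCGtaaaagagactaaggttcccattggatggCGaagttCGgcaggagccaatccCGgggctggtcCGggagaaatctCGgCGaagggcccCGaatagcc
TRIM40: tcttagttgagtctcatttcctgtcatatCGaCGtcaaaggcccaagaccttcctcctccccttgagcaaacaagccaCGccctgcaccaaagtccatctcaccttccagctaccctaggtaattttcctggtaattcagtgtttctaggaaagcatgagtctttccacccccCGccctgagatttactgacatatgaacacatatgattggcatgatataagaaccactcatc
TRIM10: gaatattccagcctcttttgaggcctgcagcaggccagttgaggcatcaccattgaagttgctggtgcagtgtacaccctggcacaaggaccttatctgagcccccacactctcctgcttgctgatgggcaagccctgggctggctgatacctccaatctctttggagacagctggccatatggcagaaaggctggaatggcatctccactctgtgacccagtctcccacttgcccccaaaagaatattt
TRIM49: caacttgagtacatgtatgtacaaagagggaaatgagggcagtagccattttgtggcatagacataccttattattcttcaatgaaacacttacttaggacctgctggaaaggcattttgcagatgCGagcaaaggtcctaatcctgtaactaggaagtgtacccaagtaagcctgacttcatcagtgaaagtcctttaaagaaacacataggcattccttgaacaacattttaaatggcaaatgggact

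Of the deubiquitinases, USP47 had 174.4 and USP1, which removes ubiquitin from FANCD2 and PCNA, 152.3. USP40 was at 103.2, USP10 at 89.7 and USP33 at 87. USP39, a splicing factor that lacks deubiquitinase activity, was at 69.9. USP25 and USP13 were at 62.4 and 61.5, and the nucleolar USP36 at 38.1. USP6NL, at 38.1, carries the letters of the family but is a GTPase-activating protein for Rab proteins. USP11 was the lowest transcribed USP gene at 26.6. USP51, a deubiquitinase linked to histones, was weakly transcribed at 7.89, and USP6, USP26 and USP29 were listed at 0. Of the 2 OTUD genes, OTUD3 was at 82.3 and OTUD7A, the second longest member at 395276 bp, was listed at 0.

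The ubiquitin machinery around these families was described with lists of known genes. Of 11 genes for H2B ubiquitylation and PAF1C, 4 were listed and 4 transcribed, UBE2B, UBE2A and the PAF1C subunits CTR9 at 59.3 and LEO1 at 50.7. Of 13 genes linked to the removal of H2B ubiquitin, 3 were listed, with ENY2, a subunit of the SAGA deubiquitinase module, at 197.5, USP36 at 38.1 and USP51 at 7.89. For transcription-coupled repair and ubiquitylation of RNA polymerase II, 6 of 20 genes were listed and 6 transcribed, among them the cullin partner RBX1 at 183.6, the HECT ligase NEDD4 at 52.7 and the elongation factor ELOF1 at 50.5. For ubiquitin activation and NEDD8, the ubiquitin-like protein that switches cullins on, 5 of 14 were listed and 5 transcribed, including CAND1, which exchanges substrate receptors on cullins, at 139.8 and UBA3, a subunit of the NEDD8 E1 enzyme, at 127.4. Of 14 core and mitotic factors of the CUL1 and anaphase-promoting ligases, UBE2S and FBXW11 were listed and both were transcribed. In these 5 lists the genes listed were all transcribed but USP51, while 45.7% of the listed protein-coding genes were.

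Genes listed for a single tissue or for induction by interferon gave mixed values. Of 12 testis genes 6 were listed, and USP26, USP29, TRIM42, RNF17 and UBE2U were at 0, while FBXO43 (EMI2), an inhibitor of the anaphase-promoting complex in meiosis, had a density of 37.05. Its nearest listed gene, POLR2K, lay 4818 bp away. Of 10 muscle genes 2 were listed, and they lay at opposite ends, with FBXO32 at 389.7 and TRIM63 (MuRF1), the other ligase known from muscle wasting, at 0.13. Of 11 brain genes, RNF182 had 70.5 and UBE2QL1 0.173. Of 12 interferon-induced genes 5 were listed, RNF114, TRIM5, TRIM21 and TRIM22 being transcribed and TRIM69 weakly so at 2.25. Over all listed protein-coding genes with a value, 45.7% were transcribed and 30.0% were listed at 0. With 2 to 6 listed genes each, these lists are too small to set against those shares.

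Members listed at 0 were shorter on the median than transcribed ones, with overlapping ranges. Transcribed members had a median length of 37105 bp and members listed at 0 one of 10920 bp, a ratio of 3.4, whereas the other protein-coding genes had 28814 bp and 14902 bp, a ratio of 1.93. Much of the difference between these ratios went with the TRIM genes, since without them the medians were 47937 bp and 21457 bp, a ratio of 2.23. Without the 12 multicopy genes, those of the TRIM43, TRIM48, TRIM49, TRIM51, TRIM64 and TRIM77 groups, the ratio was 1.62. All 8 of these with a value were listed at 0, so leaving them out changed the silent side only. Multicopy genes were not left out of the other protein-coding genes, so 1.62 and 1.93 are not like for like. Within the TRIM family the medians were 17679 bp and 9333 bp. Of the members listed at 0, 44.4% were shorter than 10 kb, against 8.45% of the transcribed ones, and the values for other protein-coding genes were 36.2% and 16.6%. Among transcribed members, density and length were hardly related (Spearman's rho -0.094 over 71 genes, and -0.0998 over the other 2683 transcribed protein-coding genes).

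The study drew its profiles along gene bodies from transcribed genes of at least 50 kb and at least 100 kb. Of the 71 transcribed members, 29 (40.8%) reached 50 kb and 12 (16.9%) reached 100 kb, where 31.3% and 13.2% of all transcribed protein-coding genes and 30.6% and 13.0% of all transcribed genes did. USP genes made up 7 of the 29, RNF genes 8, and TRIM genes 2, TRIM66 and TRIM24. The 12 longest were FBXL17, RNF180 (207027 bp), KLHL4 (152249 bp), USP6NL (151141 bp), USP25 (150083 bp), FBXW11 (145090 bp), USP13 (136362 bp), UBE3C (130445 bp), TRIM24, USP47 (119916 bp), RNF111 (109757 bp) and FBXO42 (105641 bp). Their densities ran from 27.3 in RNF180 to 174.4 in USP47. Transcribed members of at least 50 kb had a median density of 70.5 and shorter ones 78.5. Length did not go with transcription in every member, since OTUD7A, RNF17 (115753 bp), the stem cell gene TRIM71 (79828 bp), USP26 (73942 bp), UBE2U (63746 bp) and USP6 (58960 bp) were listed at 0, and RNF150, of 273663 bp, had a density of 7.58. The next longest silent members were FBXO47 (30972 bp), TRIM29 (26828 bp), TRIM42 (23087 bp) and TRIM58 (22952 bp). USP9Y, of 159609 bp, had no value.

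**Figure D4:**
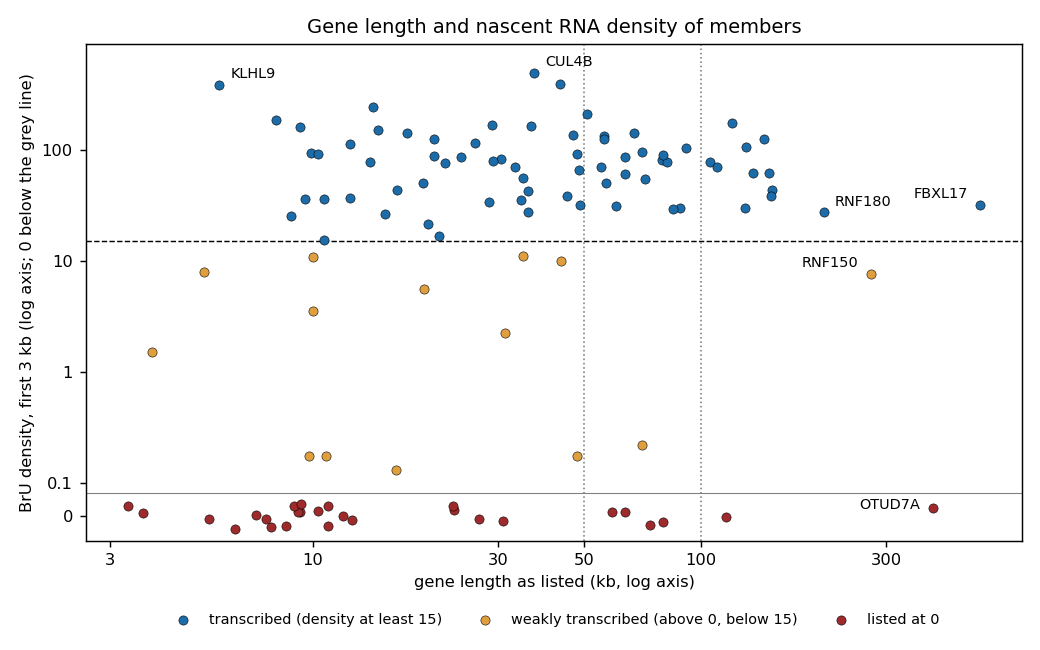
Listed gene length (x axis, kb, log axis) and BrU density in the first 3 kb (y axis, log axis, with values of 0 below the grey line) of the 112 members with a value. Each point is 1 gene coloured by class, the dashed line marks a density of 15 and the dotted lines 50 and 100 kb, and 29 blue points lie at or beyond the first dotted line.

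UV-C lesions that stop RNA polymerase form at neighbouring pyrimidines, most often at TT, on the transcribed strand. The reference sequence therefore gives the number of such sites that a polymerase meets, although no lesion was measured here. Transcribed members held a median of 3460 TT on the transcribed strand, against 2321 in the other transcribed protein-coding genes, and the number ran from 330 in RNF44 to 53777 in FBXL17. Of the 2 H2B enzymes, UBE2A had 887 and UBE2B 1886, and CUL4B had 3713. Per kb the medians were 88.6 TT in transcribed members and 84.2 in those listed at 0, and 83.2 and 78.7 in the other protein-coding genes. The order changed with the window and the dinucleotide: in the first 3 kb the medians were 73.3 and 78.7 per kb, and with all dipyrimidines over the whole gene 269.2 and 286.4 per kb. The other protein-coding genes showed the same changes of order, with 69.7 and 71.7 TT per kb in the first 3 kb and 270.5 and 279.3 dipyrimidines per kb over the whole gene. KLHL4 had the most TT per kb, 125.1, and RNF44 the least among transcribed members, 30.9.

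Promoter sequence was read from RefSeq windows of 300 bases, 250 before and 50 after the start. A window at the listed start was found for 96 members, all at exactly the same base. Transcribed members had a median of 29 CpG per window (58 windows) and members listed at 0 a median of 6 (23 windows), with overlapping ranges of 2 to 49 and 0 to 35. The other protein-coding genes had 27 and 7. The ratio of observed to expected CpG was at least 0.6 in 87.9% of windows of transcribed members and 30.4% of those listed at 0, close to the 90.7% and 31.6% of other protein-coding genes. Silent TRIM genes had a median of 1 CpG (13 windows) and silent members outside the family 14.5 (10 windows). The silent TRIM windows include multicopy genes whose values of 0 are uncertain, such as TRIM49 with 1 CpG, TRIM49B with 0 and TRIM64C with 3. The medians of 1 and 6 CpG rest in part on them, and no median without them was computed. Exceptions on both sides included the transcribed KLHL4 and FBXW10B with 2 CpG each and TRIM5 and TRIM21 with 6 each. The first 3 kb of FBXW10B overlap another protein-coding gene, so its density may hold reads of both. On the other side, UBE2QL1 with 47 was weakly transcribed, and KLHL34 with 35, USP6 with 34 and TRIM71 with 27 were at 0. The letters GGGCGG, the core of an SP1 site, were found on either strand in 81% of windows of transcribed members and in 30.4% of those listed at 0. The other protein-coding genes had 74.8% and 37.1%, and all 35097 promoter windows 44.9%. The letters TATAAA, on either strand, were in 6.9% and 17.4% of the members' windows, in 4.97% and 18.5% of those of other protein-coding genes and in 11.5% of all windows. Neither motif can overlap the other. Among transcribed members CpG number and density were hardly related (Spearman's rho 0.117 over 58 genes, and -0.0174 over 2092 other transcribed protein-coding genes).

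**Figure D5:**
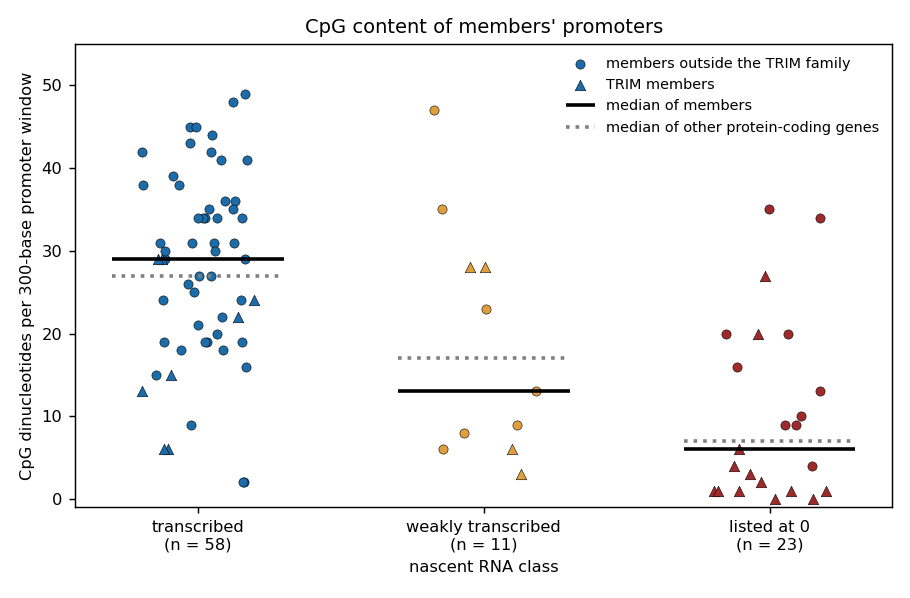
CpG dinucleotides per 300-base promoter window (y axis) of members by nascent RNA class (x axis). Each point is 1 gene, with triangles for TRIM genes, black lines for the median of the members and dotted grey lines for the median of other protein-coding genes in the class, and the members' medians fall from 29 to 13 and 6.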

How the data were processed

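The sources name Trim Galore 0.6.5 for trimming, STAR for alignment of the BrU-seq reads of an earlier data set (up to 20 alignments allowed, the primary one kept) and HOMER 4.8.2 for read densities. The authors deposited 1 list of 9588 genes, which they describe as UCSC canonical transcripts at least 3 kb long and 2 kb apart, updated to GRCh38.p14. In the list 78 genes are shorter than 3 kb, none of them a member. The authors computed its 1 density per gene, treated here as a score, over the first 3 kb. It was counted with HOMER's default settings, which take both strands. Each value above 0 is a whole multiple of 0.0433, or 0.13 divided by 3 kb (within 0.01 of a step), and whether a step is 1 read is not given in the sources used here. They name 3 different BrU-seq samples, but the list has no library columns and no depth, so no error or test was possible. Replicate ChIP-seq libraries were not analysed here.

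Values within 1e-06 of 0 were taken as 0. Symbols, biotypes and exons came from GENCODE v44 (9538 of 9588 identifiers matched), dipyrimidines from the hg38 sequence and promoters from RefSeq (GRCh38.p14); protein sequences were not used here. By rule the text names, per family, the most transcribed and the longest members, the 10 most transcribed and the 10 longest transcribed and silent members, those nearest the threshold or to another listed gene, adjacent members and all listed genes of the pathway lists. Other members were named after their values were seen. Some genes outside the families are not reported here. Members and lists were chosen with earlier results of these data known. Medians and Spearman correlations were computed with Python 3.11.15, pandas 2.3.3 and SciPy 1.17.1. The dinucleotide counts were checked on simulated sequences and the family rule on known symbols. Alternatives are given at the end.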

Additional observations from a re-analysis of the deposited data

How the results depend on the processing

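With 11 values and 77 alternatives, of which 12 were chosen after the data were seen (leaving out members whose first 3 kb overlap another annotated gene, and leaving out TRIM73, TRIM74, FBXW10B, USP6 and USP6NL), 66 stayed close to the value reported, 8 moved and 3 changed sign. The share of transcribed members was 75.9% when any density above 0 counted and 73.8% without the TRIM family. With any density above 0 counted, members lay closer to the background, since 24.1% of them and 30.0% of all listed protein-coding genes were at 0. At a density of at least 15 the distance to the background was 17.6 percentage points against protein-coding genes and 31.8 against all listed genes. The ratio of the median lengths of transcribed and silent members, 3.4, was 2.23 without the TRIM family and 1.62 without multicopy genes, and the median length of silent members, 10920 bp, was 21457 bp and 22952 bp in these settings. With gene lengths from the annotation the median of transcribed members was 53329 bp, the ratio was 4.88 and 36 members reached 50 kb. These 3 values were counted as close to those reported. The rho of density and length was 0.0903 over all members above 0. The difference of transcribed from silent members in TT per kb, 4.4, was 9.58 on the coding strand, -5.33 in the first 3 kb and -17.1 for all dipyrimidines, and the cause was not tested. No paired analysis was possible because the list has no library columns, and for the same reason no library could be left out. A planned description of protein sequences was not run.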
